A study of Mus musculus with 8 samples.

Results

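The genes described here mark the base of the small-intestinal crypt, and 10 were listed: the stem cell and Wnt target genes Lgr5, Olfm4, Ascl2, Sox9, Axin2 and Smoc2, and the Paneth cell genes Lyz1, Mmp7, Ang4 and Itln1. Members were all probe sets whose platform annotation names 1 of these genes and no other. They came to 13 of the 18443 probe sets in the deposited table and covered 7 of the 10 listed genes (7 of 10401 genes named by a probe set), with 8 probe sets for 4 stem genes and 5 for 3 Paneth genes. No probe set carried Lgr5, Olfm4 or Ang4 alone, and these 3 genes are not analysed here. The samples were enterocyte preparations from the small intestine of male C57BL/6 mice aged 2.5 to 3.0 months on a standard diet. IE-Cpr-null mice, which lack the cytochrome P450 reductase gene Cpr in the intestinal epithelium, were set against their wild-type littermates (WT). Every array measured a pool of 2 mice, and differences were read against the spread of 4 such pools per genotype. The labels do not name the Cre driver, and the deleted gene's own transcript, which could test the labels, is not analysed here. The question put to these genes was how much crypt material each preparation held and whether that differed between the genotypes.

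The crypt base holds the stem cells that renew the intestinal epithelium, wedged between Paneth cells. Wnt signals keep the stem cells dividing and also mature the Paneth cells, and Ascl2, Sox9 and Axin2 are transcriptional targets of that pathway. Their daughters divide in the upper crypt and then move onto the villus as absorptive enterocytes, whereas Paneth cells stay at the base and secrete antimicrobial proteins. In a preparation of enterocytes, transcripts of these cells therefore come along with whatever crypt tissue was released. In bulk RNA, fewer cells of a type and less RNA per cell cannot be told apart.

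The values were on a log2 scale, and each probe set had been centred so that the median of its 4 WT arrays was 0. The tables thus hold differences and no levels. A probe set near 0 on every array may be steady or below background, and the presence of enterocyte markers could not be checked as a level. Of the 8 arrays, IE-Cpr-null replicate 1 and WT replicate 2 were rich in smooth muscle and stromal transcripts (list means of 3.82 and 1.54, against -0.40 to 0.16 on the others). IE-Cpr-null replicates 2 and 3 were rich in hepatocyte transcripts (5.65 and 3.37). Pancreatic acinar transcripts were low on WT replicate 3 (-4.80) and on IE-Cpr-null replicates 2, 3 and 4 (-5.05 to -4.94). Member differences between the genotypes that rest on such an array are given with and without it. Other results, such as spreads within groups, mostly rest on all 8 arrays.

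Paneth cell genes varied widely between pools and mostly followed 1 order of arrays, which was not the order of the genotypes. Mmp7, Itln1 and 2 of the 3 Lyz1 probe sets were each highest on IE-Cpr-null replicate 1, second on WT replicate 3, and lowest on IE-Cpr-null replicate 2. IE-Cpr-null replicate 4 was next to lowest in all of these probe sets. The order of the 8 arrays was the same in all of them, except that IE-Cpr-null replicate 3 and WT replicate 1 changed places in Itln1. The sequences before the starts of these 3 genes are shown because their transcripts moved together across the pools. They are RefSeq promoter sequences of build GRCm38.p6, written 5′ to 3′ on the strand of the gene and ending before its outermost annotated start. Capitals mark the searched letters: CTTTGA and CTTTGT, core letters bound by the Wnt effectors of the TCF/LEF family, and TGAGTCA, the AP-1 site, each on both strands.
Mmp7, chr9:7691840-7692089, plus strand: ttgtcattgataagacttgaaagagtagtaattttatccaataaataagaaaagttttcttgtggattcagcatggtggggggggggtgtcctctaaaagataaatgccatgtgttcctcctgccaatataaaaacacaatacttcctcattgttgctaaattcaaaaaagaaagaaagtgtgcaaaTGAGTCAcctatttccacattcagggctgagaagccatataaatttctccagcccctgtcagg
Lyz1, chr10:117292869-117293118, minus strand: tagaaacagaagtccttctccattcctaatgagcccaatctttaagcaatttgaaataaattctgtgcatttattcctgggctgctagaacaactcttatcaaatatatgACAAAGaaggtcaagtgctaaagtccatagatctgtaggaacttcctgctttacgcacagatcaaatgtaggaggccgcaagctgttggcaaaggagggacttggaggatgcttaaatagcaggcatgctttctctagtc
Itln1, chr1:171535326-171535544, minus strand: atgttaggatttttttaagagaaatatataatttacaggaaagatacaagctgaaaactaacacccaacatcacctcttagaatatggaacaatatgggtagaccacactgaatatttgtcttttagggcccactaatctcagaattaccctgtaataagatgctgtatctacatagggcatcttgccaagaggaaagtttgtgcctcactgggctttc

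The Mmp7 window held TGAGTCA beginning 63 bases before the start, and 4.46% of 32851 promoter windows of 250 bases held that heptamer. The Lyz1 window held CTTTGT in reverse complement, beginning 140 bases before the start, as did 16.5% of windows. CTTTGA was in none of the 3 windows and in 13.8% of all windows of 250 bases. The Itln1 window of 219 bases held none of these letters; at that length CTTTGA was in 12.6% of windows, CTTTGT in 14.8% and TGAGTCA in 3.98%. The matches describe these windows only, and AP-1 was searched after the sequences were seen.

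Mmp7 encodes matrilysin, the metalloproteinase that activates the alpha-defensins of mouse Paneth cells. Its probe set stood at -0.36, 0.12, 1.48 and -0.12 on WT replicates 1 to 4, and at 2.93, -1.54, -0.36 and -1.19 on IE-Cpr-null replicates 1 to 4. The IE-Cpr-null pools thus enclosed the whole WT range, with 1 pool above it and 2 below. From the lowest to the highest array Mmp7 spanned 22.1-fold. The group means were 0.28 ± 0.82 in WT and -0.04 ± 2.04 in IE-Cpr-null (SD, n = 4 pools each). The difference of -0.32 (SE 0.981, 95% interval -2.60 to 1.97) lay within the spread between pools (limma adjusted p = 0.906, exact permutation p = 0.83, two-sided).

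Lyz1 encodes the lysozyme of Paneth cell granules. Probe set 1439426_x_at read -0.50, 0.10, 0.98 and -0.10 on the WT arrays; on the IE-Cpr-null arrays it read 1.58, -1.79, -0.25 and -0.73, a span of 10.3-fold. Probe set 1436996_x_at read -0.48, 0.11, 0.89 and -0.11 in the WT pools, against 1.33, -1.64, -0.24 and -0.71 in the IE-Cpr-null pools. Both gave the same order of arrays as Mmp7, and both differed by -0.42 between the genotypes (SE 0.687 and 0.611, limma adjusted p = 0.862 and 0.86). The third Lyz1 probe set, 1450822_at, varied less and had another order of arrays, though IE-Cpr-null replicate 1 was again the highest. Most of its values were near 0, where steady and below background cannot be told apart, so it says little about Lyz1. It lay between -0.02 and 0.02 in WT, at 0.26 on IE-Cpr-null replicate 1 and at -0.36 on replicate 4, and differed by -0.02 (SE 0.118, adjusted p = 0.94).

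The suffix of the first pair of Lyz1 probe sets marks probes that can match related sequences, and Lyz2 encodes the near-identical lysozyme of macrophages. Lyz2, chosen after its values were seen, read -0.50, 0.04, 0.72 and -0.04 in the WT pools, against 1.02, -1.74, -0.19 and -0.80 in the IE-Cpr-null pools, within 0.555 of 1439426_x_at on every array. Signal from the 2 lysozyme genes therefore cannot be separated here. The macrophage list mean was -0.41, -0.09, 0.73 and 0.05 in the WT pools, against -0.34, -0.93, -0.22 and -0.55 in the IE-Cpr-null pools. Like the lysozyme values it was high on WT replicate 3 and lowest on IE-Cpr-null replicate 2. Unlike them it was below 0 on IE-Cpr-null replicate 1. On IE-Cpr-null replicate 1, 2 of the 10 macrophage markers were above all WT arrays and 4 below. Of all genes on that array, 38.8% were above and 25.9% below. C1qa, a complement subunit, stood at -1.44 there, at 1.5 on WT replicate 3 and at -3.35 on IE-Cpr-null replicate 2. The part of macrophages in the lysozyme values was not tested.

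Itln1 encodes intelectin, a lectin that binds microbial sugars. It read -0.48, 0.14, 0.73 and -0.14 in the WT pools, against 1.27, -1.14, -0.67 and -1.08 in the IE-Cpr-null pools. The first IE-Cpr-null pool was again above all WT pools, and the other 3 were below all of them. The difference was -0.47 (SE 0.558, 95% interval -1.77 to 0.83, limma adjusted p = 0.86, exact permutation p = 0.457).

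**Figure D1:**
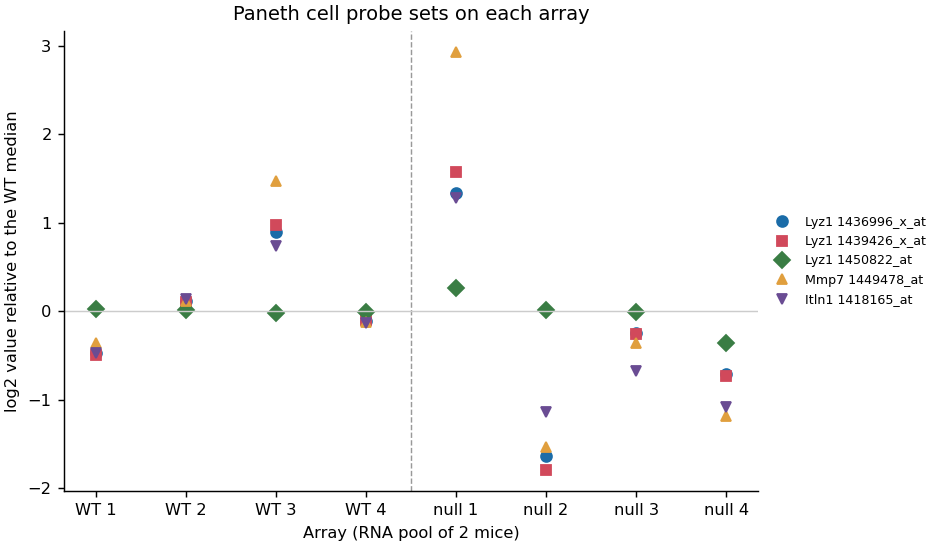
Log2 values of the 5 Paneth cell probe sets (vertical axis, with the WT median at 0) on each of the 8 arrays (horizontal axis, WT left and IE-Cpr-null right of the dashed line); each point is 1 pool of 2 mice. Mmp7 ran from -1.54 to 2.93 within the IE-Cpr-null group, and Lyz1 1450822_at stayed between -0.36 and 0.26.

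The mean over Lyz1, Mmp7 and Itln1, each gene taken as the mean of its probe sets, summarises this. It was -0.39, 0.11, 0.94 and -0.11 on the WT arrays and 1.75, -1.27, -0.40 and -0.96 on the IE-Cpr-null arrays. The SD between pools was 0.573 in WT and 1.36 in IE-Cpr-null. The difference of this mean was -0.36 with all arrays. Leaving out 1 IE-Cpr-null pool at a time gave -1.02 (replicate 1), -0.01 (replicate 2), -0.30 (replicate 3) and -0.11 (replicate 4), and leaving out WT replicate 3 gave -0.09. Without the 2 arrays rich in muscle transcripts it was -1.03, and without the 2 rich in hepatocyte transcripts 0.26. Its size and sign thus turned on which pools were counted.

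Without IE-Cpr-null replicate 1, all 5 Paneth probe sets were lower in IE-Cpr-null, as they were with it. Mmp7 then differed by -1.31 (SE 0.494, 95% interval -2.49 to -0.12, limma adjusted p = 0.388) and Itln1 by -1.03 (SE 0.286, 95% interval -1.72 to -0.35, limma adjusted p = 0.269). Lyz1 1439426_x_at differed by -1.04 (SE 0.462, limma adjusted p = 0.464). These differences were larger than with all arrays and still did not pass the adjusted threshold of 0.05, which 0.0868% of probe sets passed in that fit. Of the 13 members, Mmp7 and Itln1 had an unadjusted p under 0.05 there, where 11.5% of all probe sets did.

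The stem cell and Wnt target genes did not share 1 pattern. IE-Cpr-null replicate 1 was the highest array in every probe set of Smoc2, Sox9 and Ascl2, and Axin2 was highest elsewhere. WT replicate 3, second in the Paneth genes, was second in both Sox9 probe sets and in 1 of the 2 Smoc2 probe sets, sixth in the other, and seventh or last in Ascl2. Ascl2 1460514_s_at lay between -0.03 and 0.04 on all arrays and may be below background, so little can be read from its order of arrays. Ascl2 1432018_at ran from -0.12 to 0.25, in the same order of arrays as the nearly flat alpha-defensin gene Defa3 (-0.06 to 0.09). Whether 1432018_at was above background is not known either, so its order also carries little. Smoc2 encodes a secreted calcium-binding matrix protein and belongs to the signature of Lgr5-positive stem cells. Its probe set 1415935_at read 0.03, -0.03, 0.82 and -0.05 in the WT pools, against 3.44, -0.56, -0.13 and -0.16 in the IE-Cpr-null pools, a span of 16.0-fold. Probe set 1431362_a_at read between -0.11 and 0.03 in WT, 1.32 on IE-Cpr-null replicate 1 and between -0.06 and 0.01 on IE-Cpr-null replicates 2 to 4. In both, 1 IE-Cpr-null pool stood above all others, and the remaining 3 lay near or below WT. The differences were 0.45 (SE 0.857, limma adjusted p = 0.865) and 0.34 (SE 0.302, adjusted p = 0.86). Without IE-Cpr-null replicate 1 they were -0.48 and 0.01, and without the 2 hepatocyte-rich arrays 1.45 and 0.68, with limma adjusted p = 0.781 for both. That array also had the highest muscle and stromal list mean (3.82), and stromal cells can express Smoc2; the part of muscle and stroma in this value was not tested. On WT replicate 2, with a muscle mean of 1.54, Smoc2 read -0.03 and 0.03.

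Sox9 encodes a transcription factor of crypt progenitors that Paneth cells need in order to form. Probe set 1424950_at read 0.00, 0.00, 0.53 and -0.18 in the WT pools, against 1.32, 0.24, -0.71 and -0.43 in the IE-Cpr-null pools. Probe set 1451538_at read 0.00, 0.00, 0.11 and -0.04 in the WT pools, against 0.72, -0.01, -0.08 and -0.01 in the IE-Cpr-null pools. The highest arrays were IE-Cpr-null replicate 1 and then WT replicate 3 in both, as for the Paneth genes. The lowest was IE-Cpr-null replicate 3, not replicate 2. The differences were 0.02 (SE 0.426, 95% interval -0.97 to 1.01, limma adjusted p = 0.988) and 0.14 (SE 0.172, 95% interval -0.26 to 0.54, adjusted p = 0.86), and -0.39 and -0.05 without IE-Cpr-null replicate 1.

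Axin2 encodes a scaffold of the beta-catenin destruction complex and is induced by Wnt signalling as its own brake. Probe set 1436845_at read -0.13, 0.05, 0.39 and -0.05 in the WT pools, against 0.07, 0.33, 0.66 and 0.26 in the IE-Cpr-null pools. Probe set 1421341_at read 0.12, -0.04, 0.02 and -0.02 in the WT pools, against 0.11, 0.83, 0.06 and 0.07 in the IE-Cpr-null pools. The highest arrays were IE-Cpr-null replicates 3 and 2 in turn, where the Paneth genes were below 0. These are also the 2 arrays rich in hepatocyte transcripts (list means of 3.37 and 5.65). The groups overlapped in both probe sets. The differences were 0.27 (SE 0.153, 95% interval -0.09 to 0.62, limma adjusted p = 0.804, exact permutation p = 0.2) and 0.24 (SE 0.172, 95% interval -0.16 to 0.65, adjusted p = 0.86, exact permutation p = 0.143). Without the 2 hepatocyte-rich arrays the differences were 0.10 (SE 0.16) and 0.07 (SE 0.0594); the part of hepatocyte material in the Axin2 values was not tested. Over 17 alternative fits the differences ran from 0.10 to 0.38 and from 0.06 to 0.31, and passed in none. Its smallest adjusted p in limma was 0.187, with array weights, a fit in which 4.02% of all probe sets passed.

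Ascl2 encodes the transcription factor that fixes stem cell identity at the crypt base. Probe set 1432018_at ran from -0.12 to 0.11 in WT and from -0.08 to 0.25 in IE-Cpr-null, and 1460514_s_at from -0.03 to 0.04 over all 8 arrays. The differences were 0.09 (SE 0.0854, 95% interval -0.11 to 0.29, limma adjusted p = 0.86) and 0.01 (SE 0.0331, adjusted p = 0.935). The first varied about as much as the typical probe set, and the second far less. Whether the second was steady or undetected, or the first above background, cannot be read from centred values.

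**Figure D2:**
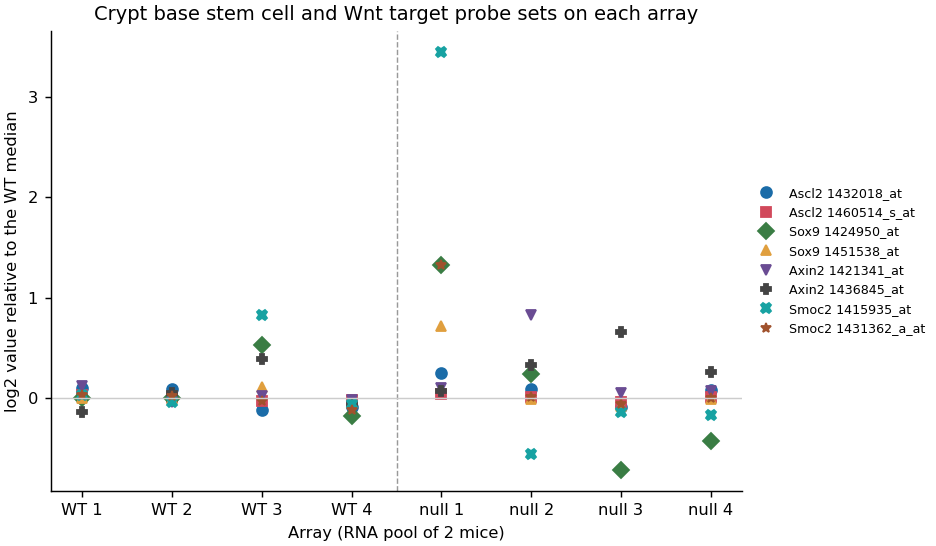
Log2 values of the 8 stem cell and Wnt target probe sets (vertical axis, with the WT median at 0) on each of the 8 arrays (horizontal axis); each point is 1 pool of 2 mice. IE-Cpr-null replicate 1 stands apart in Smoc2 (3.44 and 1.32) and Sox9 (1.32 and 0.72), and IE-Cpr-null replicates 2 and 3 are each the highest in 1 of the Axin2 probe sets.

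The mean over the 4 stem genes was 0.02, 0.01, 0.21 and -0.07 in the WT pools, against 0.91, 0.12, -0.05 and -0.02 in the IE-Cpr-null pools. This mean differed by 0.19 with all arrays and by -0.03 with the first IE-Cpr-null pool left out. It differed by 0.40 without the 2 hepatocyte-rich arrays, -0.04 without the 2 muscle-rich arrays and 0.09 after quantile normalization. All 8 stem probe sets had a higher mean in IE-Cpr-null (median difference 0.19) and all 5 Paneth probe sets lower (median -0.42), while the median over all probe sets was 0.02. With the first IE-Cpr-null pool left out, the stem direction held for Axin2, for 1432018_at of Ascl2 and for 1431362_a_at of Smoc2 only.

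Across the genotypes, 0 of the 13 probe sets passed an adjusted p of 0.05 in limma, where 0.0217% of all probe sets passed. None (0) had an unadjusted p under 0.05, where 7.40% of all probe sets did. Groups were free of overlap in 0 of the 13, against 4.11% of all probe sets. Adjusted p-values ran from 0.804 to 0.988, and exact permutation p-values from 0.143 to 1, where 4 against 4 arrays allow no value below 0.0286. No member passed in any of the alternative settings tried. The intervals remain wide for the genes that varied most. A 2-fold change in either direction lay within the intervals of Mmp7, Smoc2 1415935_at (95% interval -1.54 to 2.45) and the first pair of Lyz1 probe sets. The intervals also included a 2-fold fall of Itln1 (-1.77 to 0.83). A 2-fold rise lay within those of Sox9 1424950_at (-0.97 to 1.01) and Smoc2 1431362_a_at (-0.36 to 1.04).

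**Figure D3:**
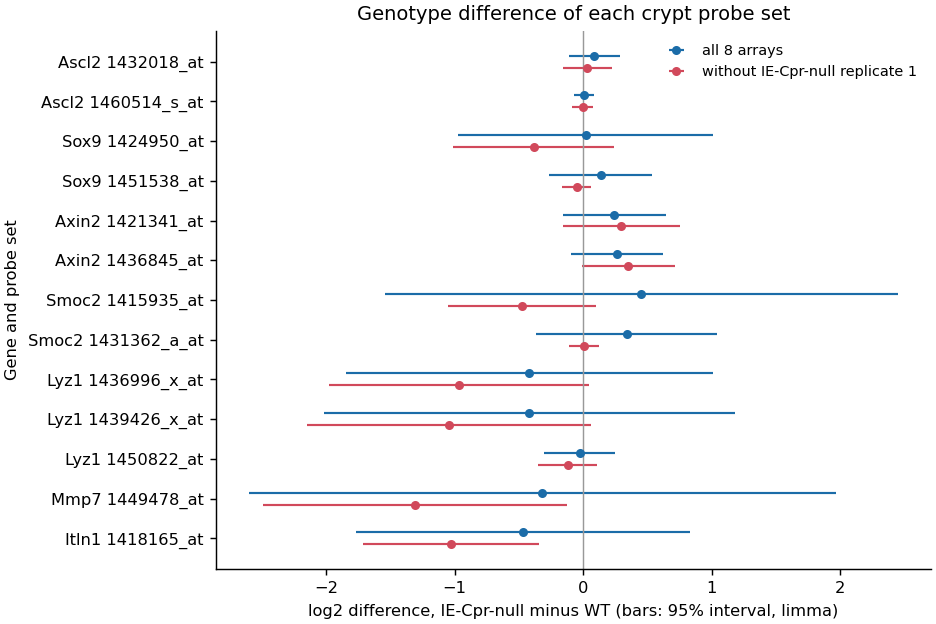
Difference between the genotypes (horizontal axis, log2, IE-Cpr-null minus WT) for each of the 13 probe sets (vertical axis), with 95% intervals from limma, for all 8 arrays (blue) and without IE-Cpr-null replicate 1 (red). With all arrays every interval includes 0; without that array those of Mmp7 (-2.49 to -0.12) and Itln1 (-1.72 to -0.35) do not, before any adjustment over probe sets.

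The spread itself set most of these genes apart from the typical probe set. The SD within groups was 0.12 in the median probe set and 0.476 in the median member, and 12 of the 13 members were above the former. The SD of Mmp7 was 1.55, above 99.4% of all probe sets, that of Smoc2 1415935_at 1.36 (99.2%) and that of Itln1 0.883 (98.5%). Ascl2 1460514_s_at was the exception, at 0.0284 (3.95%). The comparison took in all probe sets, among them any below background. The member SDs also include IE-Cpr-null replicate 1. Without that array the SE of the difference fell from 0.857 to 0.241 for Smoc2 1415935_at. It fell from 0.981 to 0.494 for Mmp7 and from 0.558 to 0.286 for Itln1.

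Other Paneth cell genes, 17 measured of 57 names listed, gave a mixed picture. None passed the threshold over all genes in limma (0 higher and 0 lower, with 1 lower at an unadjusted p under 0.05; over all 10401 genes 0.0288% passed, and 8.69% had an unadjusted p under 0.05). Their median difference was 0.02, as was that of all genes. Mptx1, a pentraxin secreted by Paneth cells, ran with the members at -0.45, 0.31, 1.13 and -0.31 in the WT pools, against 2.48, -2.18, -1.27 and -1.62 in the IE-Cpr-null pools. Spink4, a peptidase inhibitor of secretory cells, did so over a narrower range, from -0.55 to 0.87. The alpha-defensin gene Defa3 stayed between -0.06 and 0.09 on all arrays, and whether it was steady or undetected cannot be read from centred values. The smallest p in the list was that of Ccl6, a chemokine gene (-0.65, SE 0.116, limma adjusted p = 0.17). On IE-Cpr-null replicate 1, 13 of the 17 genes were above all WT arrays, as were 38.8% of all genes on that array.

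Other stem cell genes, 18 measured of 24 listed, likewise gave no call in limma (0 higher and 0 lower, with 2 lower at an unadjusted p under 0.05), and their median difference was -0.05. Slc12a2, a chloride cotransporter of crypt cells, read -0.59, 0.40, 1.03 and -0.40 in the WT pools, against 1.80, -1.73, -0.55 and -1.12 in the IE-Cpr-null pools, the order of the Paneth genes. The cell surface receptor Cd44 was 0.70 on IE-Cpr-null replicate 1 and -0.92 on replicate 2. Hopx, which marks a slowly cycling stem cell state, had the smallest p (-0.48, SE 0.0943, limma adjusted p = 0.19), and all 4 IE-Cpr-null pools (-0.58 to -0.30) lay below all WT pools (-0.15 to 0.17). On IE-Cpr-null replicate 1, 13 of the 18 were above all WT arrays and 2 below, against 38.8% and 25.9% of all genes. On replicate 2 these counts were 2 and 9, against 21.3% and 24.2% of all genes.

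Wnt and Notch signalling genes varied less than the members. Of 29 Wnt components 25 were higher and 4 lower, with a median of 0.04, where 5995 of 10401 genes were higher with a median of 0.02. None (0) passed in limma, 1 at an unadjusted p under 0.05: the transcription factor gene Tcf7l2 (0.21, SE 0.0631, adjusted p = 0.387). Of 19 Notch genes 10 were higher and 9 lower and 0 passed in limma, with Atoh1, the switch to secretory fate, at -0.39 (SE 0.141, adjusted p = 0.476). At an unadjusted p under 0.05 there were 1 higher and 1 lower.

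Cell cycle genes, which mark dividing crypt cells, shared the extreme arrays of the Paneth genes and showed no call between the genotypes. Of 33 measured, 21 were higher and 12 lower, with a median of 0.04 and 0 calls in limma (1 lower at an unadjusted p under 0.05). The list mean was -0.07, 0.02, 0.45 and -0.15 in the WT pools, against 0.79, -0.38, 0.05 and -0.20 in the IE-Cpr-null pools. The highest arrays were again IE-Cpr-null replicate 1 and WT replicate 3, and the lowest IE-Cpr-null replicate 2. The arrays between were ordered otherwise, with IE-Cpr-null replicate 3 next at 0.05, where the Paneth mean was -0.40. Mki67, the proliferation antigen, ran from -1.24 to 1.57. On IE-Cpr-null replicate 1, 26 of the 33 were above all WT arrays, as were 38.8% of all genes. On replicate 2, 17 of the 33 were below all WT arrays, as were 24.2% of all genes. Pcna, the sliding clamp of DNA replication, had the smallest p and another pattern, with all IE-Cpr-null pools (-0.35 to -0.17) below all WT pools (-0.06 to 0.03; difference -0.26, SE 0.0471, limma adjusted p = 0.173). Without IE-Cpr-null replicate 1, the replication helicase gene Mcm6 passed (-0.64, SE 0.0613, limma adjusted p = 0.0277; 0.365% of genes passed in that fit). With array weights 6 genes of these lists passed, all lower (Ccl6, Hopx, Mcm6, Pcna, Prom1 and Rnf43), where 5.63% of all genes did. The lists measured 18 other stem, 17 other Paneth, 29 Wnt, 19 Notch, 33 cell cycle and 25 villus genes. The share that passed was thus near that of all genes.

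Mature villus genes varied little between pools. Of 25 measured, 10 were higher and 15 lower, with a median of -0.02 and 0 calls in limma (2 lower at an unadjusted p under 0.05). Their mean was lowest on IE-Cpr-null replicate 1 (-0.19), where 17 of the 25 were below all WT arrays and 0 above; 25.9% of all genes were below there. The other 7 arrays lay between -0.11 and 0.01. The sugar transporter gene Slc2a2 had the smallest p (-0.28, SE 0.0604, limma adjusted p = 0.242). Villus genes spanned less than cell cycle genes: 2 of the 25 spanned at least 2-fold over the 8 arrays, against 19 of 33 cell cycle genes and 9.40% of all genes.

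**Figure D4:**
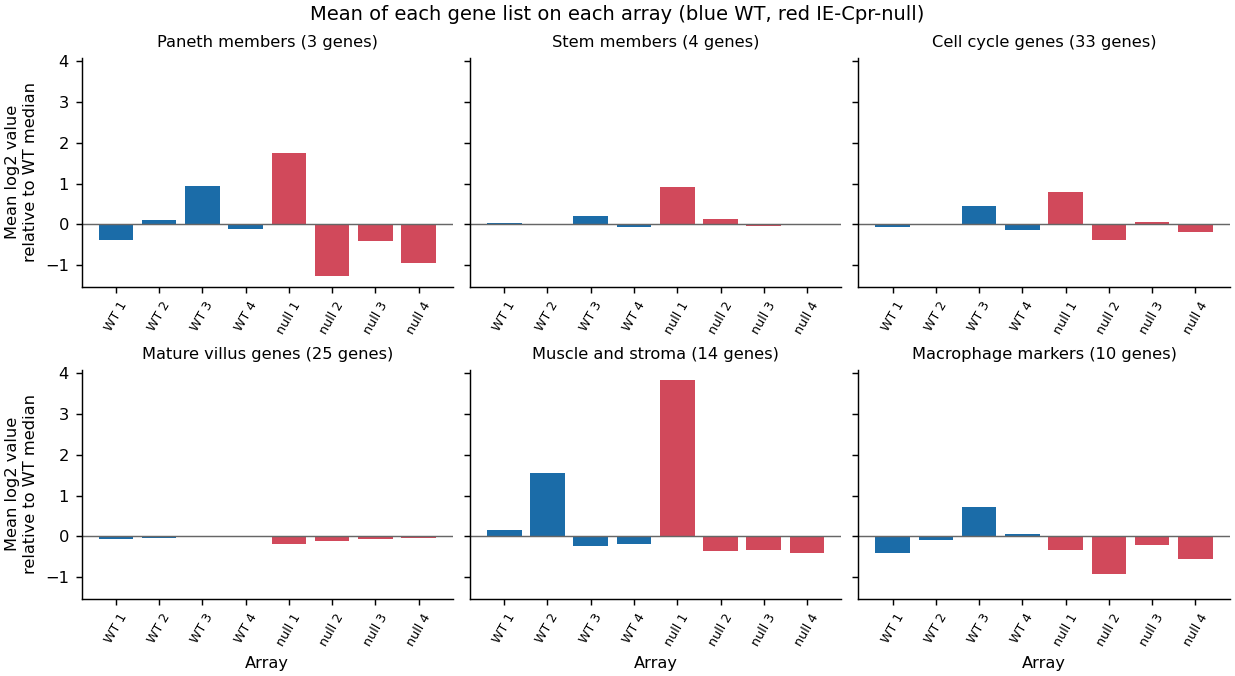
Mean log2 value (vertical axis, with the WT median at 0) of 6 gene lists on each of the 8 arrays (horizontal axis; blue WT, red IE-Cpr-null). Paneth and cell cycle means are highest on IE-Cpr-null replicate 1 and WT replicate 3, muscle and stroma on IE-Cpr-null replicate 1 and WT replicate 2, and macrophage markers on WT replicate 3.

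Lists of other cell types differed between the 2 arrays with the highest Paneth and cell cycle means. On IE-Cpr-null replicate 1 all 14 muscle and stromal genes were above all WT arrays (list mean 3.82, the muscle protein desmin, Des, at 6.67). On WT replicate 3 the muscle mean was -0.24, beside a Paneth mean of 0.94 and a cell cycle mean of 0.45. On WT replicate 2 the muscle mean was 1.54, beside a Paneth mean of 0.11 and a cell cycle mean of 0.02. The part of muscle and stroma in the Paneth and cell cycle values was not tested. The macrophage mean was 0.73 on WT replicate 3 and -0.34 on IE-Cpr-null replicate 1. Goblet cell markers (8 genes), from the other main secretory lineage, had means of -0.10, 0.12, 0.07 and -0.07 in the WT pools, against 0.35, -0.29, -0.24 and -0.27 in the IE-Cpr-null pools. Of these, 1 was above and 5 were below all WT arrays on IE-Cpr-null replicate 1, against 38.8% and 25.9% of all genes. The acinar mean was low on WT replicate 3 (-4.80) and higher on IE-Cpr-null replicate 1 (-1.93), the array with the higher Paneth mean.

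Among 5201 genes that varied at least as much as the median gene, the 5 whose pattern over the 8 arrays was most like the Paneth mean were Spink4, Slc12a2, Mptx1, the glutamine transporter gene Slc1a5 and the ribonucleotide reductase gene Rrm2 (Pearson r from 0.978 to 0.992, as a description). Without IE-Cpr-null replicate 1 their r ran from 0.956 to 0.983. The 5 most like the stem mean were Rrp15, Kif2c, Anln, Trip13 and Mcm3 (r from 0.977 to 0.99), of which Kif2c, Anln and Trip13 act in mitosis and Mcm3 in replication. That likeness leaned on IE-Cpr-null replicate 1, without which r ran from 0.726 to 0.89.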

How the data were processed

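Gene expression was measured on 8 single-colour arrays, 4 per genotype, grouped by sample title. The table the authors deposited holds log2 values; the submitters' processing notes name GCRMA, with no version or settings in the sources used here. The deposited values were also centred per probe set on the median of the 4 WT arrays, so neither levels nor signal over background are known, and no dim probe set was left out. The number of arrays limits the precision, and the labels give no batch. Probe sets were named from the platform annotation (16689 with 1 symbol, 616 with several, 1138 unnamed). Gene values are means over a gene's probe sets (10401 genes).

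Each probe set was tested with limma 3.58.1 in R 4.3.3 (lmFit, eBayes, two-sided), with Benjamini-Hochberg adjustment over 18443 probe sets, or 10401 genes for lists. Exact permutation tests used all 70 assignments. Members and lists were chosen with earlier results of these data known. All member probe sets are named; from each other pathway list up to 3 genes past the threshold, or the gene with the smallest p; further genes (among them Lyz2, Mptx1, Spink4, Slc12a2, Cd44, Defa3 and Mki67) were picked with their values in view. Alternatives were quantile normalization, median centring, array weights, the replicate number as a block, a robust prior, filters on spread and on shared probes, genes in place of probe sets, a minimum of 1.5-fold, and arrays left out. Scripts were tested on simulated data.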

Additional observations from a re-analysis of the deposited data

Results flagged for a closer look

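Within groups of 4 arrays, a value was singled out where its gap to the nearest other, as a share of the group's range, exceeded Dixon's 95% critical value. This held in 10 of the 62 groups examined over the member probe sets and the gene lists. Chance flags about 5% of independent groups. These groups share arrays and genes, and the lists were chosen with earlier results known, so the count is a description and not a test. IE-Cpr-null replicate 1 was the highest of its group in Smoc2 1415935_at (3.44, gap share 0.894), Smoc2 1431362_a_at (1.32, 0.948) and Sox9 1451538_at (0.72, 0.906). It was also highest in the means of the goblet (0.35, 0.909), muscle and stromal (3.82, 0.986) and acinar lists (-1.93, 0.964). On that array 5 of the 8 goblet genes nevertheless lay below all WT arrays, against 25.9% of all genes. IE-Cpr-null replicate 2 was highest in Axin2 1421341_at (0.83, 0.936), and IE-Cpr-null replicate 3 lowest in the mean of proximal intestinal genes (-3.44, 0.87). WT replicate 3 was highest in Smoc2 1415935_at (0.82, 0.901) and lowest in the enteroendocrine mean (-0.14, 0.95). No Paneth cell probe set met this criterion.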

How the results depend on the processing

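The count of members called was 0 in every setting tried. The count over all probe sets was 4. It was 1 with quantile normalization, 741 with array weights, 1 with the replicate block, 7 among the more variable part of the probe sets, and 1 to 16 without 1 array. Pathway genes called numbered 0, but 6 with array weights (Ccl6, Hopx, Mcm6, Pcna, Prom1 and Rnf43, all lower) and 0 to 1 without 1 array. With array weights 5.63% of all genes passed, a share near that of these lists. Same-numbered arrays deviated together in 2 of 4 pairs only (r over 0.1; lowest -0.0579), so the numbers were not taken to pair the samples, and the replicate block changed no member's call.

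Of 217 member differences under alternatives, 27 had the other sign, none of them a call. Sox9 1424950_at was -0.085 with quantile normalization, -0.30 with array weights, -0.42 without the muscle-rich arrays and -0.39 to 0.29 without 1 array, and Sox9 1451538_at -0.057 without the muscle-rich arrays and -0.050 to 0.22 without 1 array. Smoc2 1415935_at was -0.14 with array weights, -0.55 without the muscle-rich arrays and -0.48 to 0.86 without 1 array. Ascl2 1460514_s_at was -0.0091 with quantile normalization, -0.0057 with median centring and -0.0030 to 0.022 without 1 array. Without the hepatocyte-rich arrays Mmp7 was 0.59, Itln1 0.032, Lyz1 1436996_x_at 0.21 and 1439426_x_at 0.30. Among differences that kept their sign, array weights gave Mmp7 -1.14, Itln1 -0.98 (95% interval -1.72 to -0.23), Lyz1 1436996_x_at -0.72, 1439426_x_at -0.75 and 1450822_at -0.27 (95% interval -0.52 to -0.03), each uncalled in limma (adjusted p from 0.125 to 0.294). Quantile normalization gave Mmp7 -0.77. In the other direction, Axin2 1436845_at was 0.26 with array weights (95% interval 0.02 to 0.50) and 0.27 with the replicate block (0.19 to 0.35). Without WT replicate 3 it was 0.38 (0.05 to 0.70). Each was uncalled in limma (adjusted p = 0.187, 0.316 and 0.62). Without 1 array Mmp7 ran from -1.31 to 0.18, Lyz1 1436996_x_at from -0.97 to 0.024, 1439426_x_at from -1.04 to 0.079 and 1450822_at from -0.12 to 0.089. Those ranges come from the arrays left out. In the array-weights fit of probe sets, IE-Cpr-null replicate 4 had a weight of 6.49. IE-Cpr-null replicates 1 to 3 had 0.33, 0.70 and 0.59, and WT replicates 1 to 4 had 0.52, 0.99, 0.78 and 2.84. The IE-Cpr-null side of that fit, with its intervals and calls, thus rested mostly on IE-Cpr-null replicate 4. For the remaining settings the cause was not tested.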

Other observations

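Genes of the proximal small intestine stood apart on 1 array. On IE-Cpr-null replicate 3 the duodenal transcription factor gene Pdx1 was -4.25 and the iron exporter gene Slc40a1 -8.19. On the other 7 arrays Pdx1 lay between -0.75 and 1.18 and Slc40a1 between -2.19 and 1.43. The Paneth mean on that array was -0.40, between those of the other IE-Cpr-null arrays. Ileal genes had a mean of -0.25 there, against -0.11 to 0.04 on the other arrays.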
